A study of Homo sapiens with 8 samples.

Results

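Forced NF-κB signalling in a B-cell leukemia line was measured by comparing the 4 arrays of Reh cells given active IKKβ with the 4 arrays of Reh cells not given it, so that all 8 of the 8 arrays in the series took part. Reh is a long-established human line of B-cell precursors. The series describes it as derived from acute lymphoblastic leukemia, while the sample labels list its malignancy as non-Hodgkin lymphoma. IKKβ(EE) is a form of the kinase IKKβ that is active without an upstream signal, and it was expressed transiently. The 4 arrays without it were 2 of cells that received control shRNA, whose titles call them mock, and 2 of cells that received shRNA against CBFA2T3, a transcriptional corepressor. The 4 arrays with it were 2 of cells that received IKKβ(EE) and 2 of cells that received both IKKβ(EE) and the CBFA2T3 shRNA. Neither the labels nor the design text say whether the cells given IKKβ(EE) without the CBFA2T3 shRNA also carried control shRNA, how many cells took up a construct, or how long after transfection RNA was taken. The labels call the 2 arrays of a group biological replicates but do not say that they came from separate cultures, so the p-values measure only the spread between these arrays, which may be technical.

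IKKβ is the catalytic subunit of the IκB kinase complex that marks the inhibitor IκB for destruction, which frees NF-κB dimers of RELA, REL and NFKB1 to enter the nucleus and bind κB elements in DNA. Many of the genes NF-κB turns on encode its own inhibitors, chemokines, adhesion molecules and blockers of cell death, so the pathway both signals to other cells and limits itself. In B-lineage cells the pathway is known for its roles in survival, in activation through CD40 and the antigen receptor, and in lymphoma.

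The effect of IKKβ(EE) was estimated for each probe set by limma with shRNA status and replicate number as covariates, so each value is a difference of log2 intensities over 4 arrays against 4, with its standard error (SE) after ±. A probe set was called when its p-value, adjusted by Benjamini-Hochberg over all 24481 tested, was under 0.05. Where the 4 arrays of a side are listed, those without IKKβ(EE) follow the order control replicates 1 and 2, then CBFA2T3 shRNA replicates 1 and 2. Those with IKKβ(EE) follow the order IKKβ(EE) alone replicates 1 and 2, then both constructs replicates 1 and 2. An array with IKKβ(EE) and the array with the same shRNA status and replicate number without it are a matched pair, of which there were 4. Log2 5 was taken as the level under which a probe set is hard to tell from background, and folds that start there are uncertain. Only probe sets that reached this floor on at least 2 arrays were tested. A gene silent without IKKβ(EE) passed it only if bright with it, which favours rises in lists that hold such genes. List counts are to be read against the 9.63% of all genes called higher and the 9.49% called lower.

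The transgene was seen through 1 of 3 IKBKB probe sets. It read 3.97, 4.02, 4.43 and 3.60 without IKKβ(EE) and 10.85, 10.39, 11.45 and 11.97 with it. The sides were far apart on every array, and the difference was 7.16 ± 0.27 (adjusted p = 1.12e-05, limma). The other probe sets of IKBKB differed by 0.29 ± 0.083 (adjusted p = 0.0469) and 0.26 ± 0.11 (adjusted p = 0.131); the first of these kept its call in 1 of the 8 fits with an array left out. CBFA2T3, the target of the shRNA, read 9.22, 9.29, 8.40 and 8.11 without IKKβ(EE) and 8.91, 8.89, 8.23 and 7.83 with it. It was lower in every array with its shRNA than in any without, and differed by -0.29 ± 0.092 between the sides, which was not called (adjusted p = 0.0645). Genes that define B precursors were bright on all 8 arrays: the terminal transferase DNTT lay at 13.1 to 13.8, the B-lineage factors EBF1 at 12.1 to 12.5 and PAX5 at 12.1 to 12.3, and the recombinase RAG1 at 11.3 to 11.9. The surrogate light chain gene VPREB1 was the exception and lay near background at 2.93 to 3.49. Among these B precursor markers 8 of 10 were tested and none was called through its brightest probe set. Their changes ran from -0.21 ± 0.068 for CD22 (adjusted p = 0.0694) to 0.057 ± 0.10 for MME. Of the 4 probe sets of CD22, 1 was called lower, and the lowest change among them was -0.47. Mean levels of markers of other cells overlapped between the sides. The 24 measured T-cell and NK-cell markers averaged log2 4.46 to 4.72 without IKKβ(EE) and 4.51 to 4.75 with it, and 8 of them reached log2 5 on 2 arrays. None of these 8 was called through its brightest probe set. GATA3 differed by 0.70 ± 0.23 (adjusted p = 0.0698) and NCAM1 by -0.30 ± 0.10 (adjusted p = 0.0793). Of the 3 probe sets of GATA3, 1 was called higher. The 21 myeloid and dendritic markers averaged 4.57 to 4.76 and 4.48 to 4.61, and the 11 plasma-cell and erythroid markers 5.57 to 5.72 and 5.61 to 5.72. Of 7 myeloid and dendritic markers tested, 1 was called higher, NCF1, an oxidase subunit of phagocytes, by 0.61 ± 0.10 with overlapping sides, and 1 lower, CEBPE, a transcription factor of granulocytes, by 0.37 ± 0.069 without overlap. Of 7 plasma-cell and erythroid markers tested, 1 was called higher, the immunoglobulin heavy chain gene IGHG1, by 0.48 ± 0.062 without overlap, and 0 lower. Over all genes 9.63% were called higher and 9.49% lower, so a count of 1 of 7 is not read as a trait of these lists. NCF1 and IGHG1 have near-identical relatives, so which gene their probe sets read is uncertain. In bulk RNA, fewer cells carrying a transcript and less of it per cell cannot be told apart.

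Active IKKβ was followed by a broad shift in which most called changes were small and the largest rises exceeded the largest falls. Of 24481 probe sets, 4349 were called (17.8%), 2277 higher (9.3%) and 2072 lower (8.46%). With arrays renormalized by cyclic loess the split was 2669 higher and 1517 lower. Among 11449 genes, each read through its brightest single-symbol probe set, 1103 were called higher (9.63%) and 1086 lower (9.49%). Of those higher, 1098 moved the same way in all 4 matched pairs (9.59% of genes), and of those lower, 1085 did (9.48%). The calls were made from these same 4 pairs, so this agreement is largely built in. The sizes differed between directions: 234 genes rose by more than 1 on the log2 scale and 80 by more than 2, whereas 13 fell by more than 1 and 0 by more than 2. The median change was 0.53 among genes called higher, -0.36 among those called lower and -0.04 over all genes tested. All 4 arrays with IKKβ(EE) lay above the other 4 in 693 genes (6.05%) and below them in 869 (7.59%), as values without a test. In 87 of the 1103 genes called higher all 4 arrays without IKKβ(EE) were under log2 5, so these genes were measured on the IKKβ(EE) side and their folds are uncertain. The count of calls rested on the replicate number as a covariate: without it, 1010 probe sets were called, 705 higher and 305 lower, all of them among the 4349. It fell to 1538 without CBFA2T3 shRNA replicate 2, 2044 without control replicate 2, 2109 without IKKβ(EE) replicate 1, 2226 without replicate 2 of both constructs, 2278 without IKKβ(EE) replicate 2 and 2592 without CBFA2T3 shRNA replicate 1.

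The steepest rises were in genes of antigen presentation, B-cell surface, chemokine and survival functions that lay at or near background without IKKβ(EE). HLA-DQA1, the α chain of the class II molecule HLA-DQ, read 4.43, 3.96, 4.94 and 5.73 without IKKβ(EE) and 10.91, 11.86, 10.88 and 12.27 with it. MS4A1, which encodes the mature B-cell antigen CD20, read 2.24, 2.52, 2.54 and 2.28 without and 6.86, 7.72, 8.97 and 10.45 with. BCL2A1, a blocker of cell death in the BCL2 family, read 2.85, 3.36, 3.62 and 4.41 without and 8.31, 8.76, 9.65 and 10.81 with. In each of the 3 genes the lowest array with IKKβ(EE) was far above the highest without it, and MS4A1 and BCL2A1 were higher with both constructs than with IKKβ(EE) alone. The differences were 6.72 ± 0.30 for HLA-DQA1 (adjusted p = 3.05e-05, limma), 6.11 ± 0.49 for MS4A1 (adjusted p = 0.000451) and 5.82 ± 0.18 for BCL2A1 (adjusted p = 5.50e-06). LAMP3, a lysosomal membrane protein of mature dendritic cells, rose by 5.96 ± 0.19, and EBI3, a subunit of the cytokines IL-27 and IL-35, by 5.46 ± 0.33. SRGN, the proteoglycan serglycin of secretory granules, was the largest rise from a level clear of background. It read 7.05, 7.24, 7.26 and 7.81 without IKKβ(EE) and 10.94, 11.72, 11.26 and 12.51 with it, a difference of 4.27 ± 0.15 or 19.3-fold. SGK1, a kinase of the serum and glucocorticoid response, likewise started clear of background: it read 7.58, 7.92, 7.28 and 8.42 without and 10.76, 11.89, 10.22 and 11.81 with, a rise of 3.37 ± 0.19 (adjusted p = 7.35e-05). Also among the 15 largest rises were NR2F1-AS1, an antisense RNA, with 4.13 ± 0.43; RNF144B, a ubiquitin ligase, with 3.92 ± 0.49; GJA1, the gap junction protein connexin 43, with 3.85 ± 0.28; and TNFAIP6, a secreted hyaluronan-binding protein, with 3.67 ± 0.44. RNF144B averaged lower with both constructs (6.44 and 8.27) than with IKKβ(EE) alone (8.19 and 9.64), a difference of effects that was not called (interaction adjusted p = 0.961, limma).

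**Figure D1:**
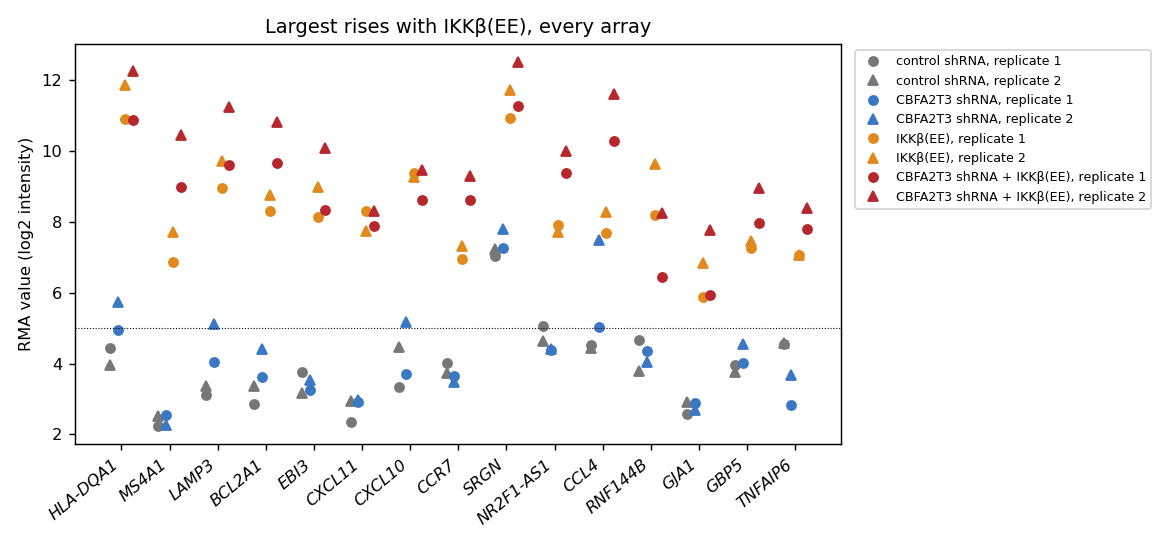
Log2 intensity (y axis) of the 15 genes with the largest called rise, by gene (x axis), with 1 point per array; colour gives the transfection, circles replicate 1 and triangles replicate 2, and the dotted line marks log2 5. For every gene shown the orange and red points of IKKβ(EE) arrays lie above the grey and blue points of the other arrays, and most of the latter lie under the line.

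Most of the pathway's own inhibitors and subunits rose, but RELA, its main transactivating subunit, did not pass the test. Of 19 NF-κB subunits, inhibitors and kinases tested, 11 were called higher and 0 lower, with a median change of 0.44 against -0.04 over all genes; 1 of the 11 is IKBKB itself, and the count was 6 without CBFA2T3 shRNA replicate 2, and 7 without the replicate covariate. NFKBIZ, a nuclear IκB protein, read 5.76, 5.84, 6.48 and 7.22 without IKKβ(EE) and 8.86, 9.24, 10.02 and 10.80 with it, a rise of 3.40 ± 0.13 (adjusted p = 1.18e-05, limma). NFKBIA, the classical inhibitor IκBα, read 10.90, 10.91, 10.61 and 10.74 without and 11.87, 12.25, 11.76 and 12.51 with, a rise of 1.31 ± 0.13. Both genes separated the sides on all 8 arrays, and NFKBIZ was already higher in the 2 arrays with CBFA2T3 shRNA alone than in the controls. The subunit genes of the alternative pathway, NFKB2 and RELB, rose by 2.07 ± 0.23 and 1.94 ± 0.10, and the kinase MAP3K8 by 2.15 ± 0.23. NFKB1 rose by 0.92 ± 0.18 and REL by 0.89 ± 0.15. RELA, the main transactivating subunit, read 8.34, 8.20, 8.42 and 8.62 without and 8.19, 8.27, 8.54 and 8.76 with, a difference of 0.047 ± 0.084 that was not called (adjusted p = 0.725).

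Of 16 feedback regulators and TNF receptor adaptors, 10 were called higher and 0 lower, with a median change of 0.62; without the replicate covariate 5 were called. TRAF1, an adaptor of TNF receptors, read 4.73, 5.36, 4.85 and 5.53 without IKKβ(EE) and 7.31, 7.37, 8.44 and 9.52 with it, a rise of 3.04 ± 0.30 (adjusted p = 0.00123, limma). TNFAIP2, a protein induced by TNF, rose by 1.62 ± 0.25, the deubiquitinase CYLD by 1.43 ± 0.068 and TNIP2, a partner of the deubiquitinase A20, by 0.99 ± 0.16. TNFAIP3, which encodes A20, a main brake on the pathway, read 10.98, 11.52, 10.95 and 11.06 without and 11.67, 12.16, 11.54 and 12.11 with, a rise of 0.74 ± 0.092 (adjusted p = 0.00301). MIR146A, the host gene of a microRNA known to restrain the adaptor TRAF6 and the kinase IRAK1, was chosen for description after its values were seen. Its probe set read 6.43, 6.55, 5.26 and 5.48 without and 7.50, 8.38, 6.66 and 7.34 with, a rise of 1.54 ± 0.13 (adjusted p = 0.000645). The sides of MIR146A came close: the lowest array with IKKβ(EE), both constructs replicate 1, lay only just above the highest control, and both arrays with CBFA2T3 shRNA and no IKKβ(EE) lay below the controls. The array reads the gene's transcript and not the mature microRNA, whose sequence is shown with its seed, bases 2 to 8, in capitals (RefSeq, GRCh38.p14, chr5:160485372-160485393, plus strand).
hsa-miR-146a-5p: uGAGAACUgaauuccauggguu

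Because κB elements are the sites to which NF-κB binds, the promoters of the called genes were searched on both strands for a run of 10 letters: GGG, then any 2 bases, then TTTCC. RefSeq promoters, 250 bases before to 50 after the gene start on GRCh38.p14, were at hand for 9361 of the 11449 genes tested, 876 of the 1103 called higher and 894 of the 1086 called lower. The motif was in 5.02% of promoters of genes called higher, 1.23% of those called lower and 2.06% of those not called; it was in 1.92% of all 27305 promoters of the table. Among the genes that rose by more than 2, it was in 5 of 58 (8.62%). The promoter stretches shown are of the 8 genes that rose, were named by rank or list and hold the motif, with the match in capitals; where the match is on the other strand it reads GGAAA, any 2 bases and CCC. All are from GRCh38.p14, written on the gene's own strand, and all lie upstream of the gene start. NFKBIZ is at chr3:101827742-101827801 on the plus strand, as are IL4R at chr16:27313899-27313958 and SWAP70 at chr11:9663827-9663867. TNFRSF9 is at chr1:7940879-7940938, GBP4 at chr1:89198953-89199012, IFIH1 at chr2:162318726-162318785, TAP1 at chr6:32853742-32853801 and JAK3 at chr19:17847983-17848037, all on the minus strand.
NFKBIZ: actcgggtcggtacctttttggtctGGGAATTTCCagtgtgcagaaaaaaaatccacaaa
TNFRSF9: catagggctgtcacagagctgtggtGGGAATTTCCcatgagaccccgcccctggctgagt
GBP4: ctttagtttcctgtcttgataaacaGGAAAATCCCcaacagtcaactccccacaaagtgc
IFIH1: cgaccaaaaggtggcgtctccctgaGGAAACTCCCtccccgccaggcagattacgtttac
TAP1: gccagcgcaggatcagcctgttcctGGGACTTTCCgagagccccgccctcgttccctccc
JAK3: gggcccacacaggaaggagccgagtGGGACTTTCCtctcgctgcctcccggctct
IL4R: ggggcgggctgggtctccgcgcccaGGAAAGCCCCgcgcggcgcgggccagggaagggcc
SWAP70: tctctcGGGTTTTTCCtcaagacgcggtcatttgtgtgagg
NFKBIZ and TNFRSF9 share the same 10 letters, GGGAATTTCC, and TAP1 and JAK3 share GGGACTTTCC. A match describes the letters of the window and is not evidence of binding. A looser pattern of GGG, any 5 bases and CC, which takes in the first, was in 70.9% of promoters of genes called higher, 76.6% of those called lower and 73.3% of those not called. Among the genes that rose by more than 2, the looser pattern was in 62.1% (36 of 58). Other elements were searched on both strands in the same windows, and no difference between groups was tested. The AP-1 letters TGANTCA were in 6.28%, 2.13% and 4.23% of these groups and in 24.1% (14 of 58) of genes that rose by more than 2. The interferon element, TTTC, any 2 bases and TTTC, was in 7.08%, 1.23% and 2.65%, and in 13.8% of the genes that rose by more than 2. The cyclic AMP element TGACGTCA was in 2.28%, 2.13% and 3.5%, and in 1.72% of the genes that rose by more than 2. Over the whole table these letters were in 58% (the looser κB pattern), 7.76% (AP-1), 3.65% (interferon element) and 1.98% (cyclic AMP element) of promoters.

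Most of the secreted signals tested rose. Of 38 cytokine and chemokine genes 25 were tested, 11 stayed under the floor and 2 had no single-symbol probe set. Of the 25, 20 were called higher and 0 lower, with a median change of 1.78. The floor favours rises among those tested, and with no floor on low values the median over 36 genes was 0.92. CXCL11, a ligand of the receptor CXCR3, read 2.35, 2.93, 2.91 and 2.97 without IKKβ(EE) and 8.31, 7.75, 7.89 and 8.31 with it. CXCL10, which binds the same receptor, read 3.35, 4.48, 3.70 and 5.17 without and 9.39, 9.27, 8.61 and 9.46 with. Both were near background on most arrays without IKKβ(EE) and bright on all 4 with it, and they rose by 5.27 ± 0.17 (adjusted p = 5.50e-06, limma) and 5.01 ± 0.26 (adjusted p = 6.27e-05). CCL5, a chemokine that attracts T cells and monocytes, read 6.72, 7.30, 7.75 and 8.51 without and 10.13, 10.30, 11.15 and 11.82 with, a rise of 3.28 ± 0.10 (adjusted p = 5.50e-06). Its paired differences were 3.41 and 2.9998 without the CBFA2T3 shRNA and 3.41 and 3.31 with it, close to each other. CCL4, also a chemokine of the CC family, read 4.54, 4.43, 5.05 and 7.48 without and 7.70, 8.29, 10.28 and 11.61 with, and its highest array without IKKβ(EE), CBFA2T3 shRNA replicate 2, lay just under the lowest with it. CXCL8, the neutrophil attractant IL-8, read 5.33, 6.24, 6.19 and 7.99 without and 7.89, 9.48, 9.004 and 10.97 with. Its sides overlapped by that same CBFA2T3 shRNA array, yet its paired differences were 2.56, 3.24, 2.82 and 2.98 and it rose by 2.90 ± 0.15 (adjusted p = 6.27e-05). IL6, the pleiotropic inflammatory cytokine, rose by 1.92 ± 0.21, IL23A, a subunit of IL-23, by 1.89 ± 0.51 and LTA, lymphotoxin α, by 1.48 ± 0.18. TNF, the gene of tumour necrosis factor, was not called: it read 9.20, 8.76, 8.49 and 8.72 without and 8.66, 8.65, 8.88 and 9.01 with, a difference of 0.0065 ± 0.16 with a 95% interval from -0.36 to 0.38 (adjusted p = 0.983).

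Receptors for such signals had a smaller median change than the signals, also with no floor on low values (0.12 over 27 genes against 0.92 over 36). Of 17 cytokine and homing receptors tested of 27 listed, 9 were called higher and 0 lower, with a median change of 0.28; the count fell to 4 without control replicate 2 and 5 without either CBFA2T3 shRNA array, and to 2 without the replicate covariate. CCR7, the receptor that guides lymphocytes into lymph nodes, read 4.03, 3.72, 3.64 and 3.47 without IKKβ(EE) and 6.95, 7.33, 8.62 and 9.29 with it, a rise of 4.33 ± 0.41 (adjusted p = 0.00102, limma). The highest CCR7 values were the 2 arrays with both constructs. IL21R, the IL-21 receptor, rose by 2.49 ± 0.19, GPR183, an oxysterol receptor that positions B cells, by 2.04 ± 0.45 and IL4R, the IL-4 receptor α chain, by 1.67 ± 0.23. CXCR4, the homing receptor for bone marrow, was called with a small rise of 0.28 ± 0.066 (adjusted p = 0.0263). IL7R, the IL-7 receptor α chain, differed by -0.092 ± 0.066 and was not called (adjusted p = 0.351).

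Most of the surface molecules tested for contact with T cells rose. Of 19 adhesion and costimulation genes tested of 29 listed, 15 were called higher and 1 lower, with a median change of 1.76. The floor favours rises among those tested, and with no floor on low values the median over 28 genes was 1.0078. ICAM1, the adhesion ligand of the integrin LFA-1, read 6.20, 6.26, 6.23 and 6.22 without IKKβ(EE) and 9.20, 9.95, 9.14 and 10.56 with it, a rise of 3.49 ± 0.22 or 11.2-fold (adjusted p = 0.000152, limma). The 4 arrays without IKKβ(EE) were almost level, and the spread of ICAM1 lay among the arrays with it, where replicate 2 was the higher. TNFRSF9, the costimulatory receptor 4-1BB, read 3.64, 4.06, 3.65 and 3.58 without and 6.31, 6.33, 7.69 and 8.93 with, a rise of 3.58 ± 0.44 (adjusted p = 0.00296). CD40, the receptor for T-cell help, read 6.96, 7.33, 7.23 and 7.52 without and 8.77, 9.44, 9.38 and 10.52 with, a rise of 2.27 ± 0.17. SLAMF1 and CD83, both markers of activated lymphoid cells, rose by 2.68 ± 0.19 and 2.58 ± 0.26, and ITGB2, the β chain of LFA-1, by 2.36 ± 0.35. The costimulatory ligand CD86 rose by 1.43 ± 0.30, and CD274, the inhibitory ligand PD-L1, by 1.76 ± 0.21. CD48, a ligand of SLAM family receptors, was the single member called lower, by 0.37 ± 0.077 (adjusted p = 0.0194), and lost that call without CBFA2T3 shRNA replicate 1 or 2 or without IKKβ(EE) replicate 1.

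Genes on both sides of the death decision rose. Of 25 survival and death regulators tested, 14 were called higher and 0 lower, with a median change of 0.34; the count was 8 without CBFA2T3 shRNA replicate 2, and 7 without the replicate covariate. FAS, a death receptor, read 5.18, 4.86, 5.82 and 5.99 without IKKβ(EE) and 8.10, 9.03, 8.36 and 9.48 with it, a rise of 3.28 ± 0.24 (adjusted p = 0.000278, limma). CFLAR, which encodes the FLIP inhibitor of death receptors, read 6.76, 6.98, 6.55 and 7.19 without and 8.24, 8.67, 9.13 and 10.32 with, a rise of 2.22 ± 0.27 (adjusted p = 0.00275). The sides did not overlap in either gene. GADD45B, a stress sensor, rose by 1.12 ± 0.18. Among the classical BCL2 family inhibitors, BCL2 differed by 0.029 ± 0.14 (adjusted p = 0.907), BCL2L1 by 0.24 ± 0.071 (adjusted p = 0.0528) and MCL1 by 0.25 ± 0.10 (adjusted p = 0.111), and none of these 3 was called, in contrast with the 5.82 ± 0.18 of BCL2A1.

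Antigen presentation rose along both arms, mostly in small steps. Of 16 class II genes tested, 13 were called higher and 0 lower, with a median change of 0.53. HLA-DRA, the α chain of HLA-DR, was already abundant and read 12.32, 12.49, 12.44 and 12.62 without IKKβ(EE) and 12.93, 13.15, 12.84 and 13.10 with it, a rise of 0.54 ± 0.07 (adjusted p = 0.00369, limma). Its 8 arrays separated by side without overlap. HLA-DOB, a chain of the peptide-exchange modulator HLA-DO, rose by 1.44 ± 0.17, HLA-DQB1 by 1.08 ± 0.10, HLA-DMB, a chain of the peptide exchanger HLA-DM, by 0.77 ± 0.10 and the invariant chain CD74 by 0.49 ± 0.071. CIITA, the master activator of class II genes, read 6.57, 6.72, 6.38 and 6.15 without and 6.25, 6.72, 6.14 and 6.19 with, and its difference of -0.13 ± 0.11 was not called (adjusted p = 0.426). Of 19 class I genes tested, 15 were called higher and 0 lower, with a median change of 0.44. TAP1, a subunit of the peptide transporter, read 9.57, 9.39, 9.85 and 10.10 without and 10.92, 10.64, 11.59 and 11.42 with, a rise of 1.42 ± 0.10 (adjusted p = 0.000275). NLRC5, the activator of class I genes, rose by 1.12 ± 0.12, and HLA-F and HLA-G by 0.94 ± 0.078 and 0.61 ± 0.063. Probe sets of HLA genes can share signal with near-identical relatives, so the split of these rises between HLA genes is uncertain.

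Interferon-responsive genes rose unevenly. Of 48 tested, 29 were called higher and 0 lower, with a median change of 0.45. GBP5, a guanylate-binding protein of cell-autonomous defence, read 3.96, 3.77, 4.03 and 4.55 without IKKβ(EE) and 7.28, 7.47, 7.96 and 8.97 with it, a rise of 3.84 ± 0.20 (adjusted p = 6.27e-05, limma). Its relatives GBP2 and GBP4 rose by 2.89 ± 0.33 and 2.31 ± 0.24, and IFIH1, the RNA sensor MDA5, by 1.94 ± 0.10. The antiviral proteins RSAD2 and OASL rose by 1.75 ± 0.30 and 1.88 ± 0.21, and ISG15, a ubiquitin-like modifier, by 0.57 ± 0.12. IRF1, a transcription factor of the interferon pathway, rose by 0.49 ± 0.085 and IRF9 by 1.60 ± 0.17. Members with a difference near 0 included EIF2AK2, the kinase PKR, with 0.0027 ± 0.08 (adjusted p = 0.986), MX2 with -0.049 ± 0.10 and IFITM3 with -0.085 ± 0.14, none of them called. Of 15 JAK-STAT genes tested, 6 were called higher and 0 lower, with a median of 0.35, or 0.20 over 17 genes with no floor on low values. Without the replicate covariate 3 were called. SOCS1, which shuts off JAK kinases, read 4.76, 4.14, 5.23 and 5.64 without and 7.30, 8.14, 7.92 and 8.99 with, a rise of 3.14 ± 0.24 (adjusted p = 0.000383). STAT5A rose by 1.36 ± 0.13 and JAK3, the kinase of the common γ chain, by 1.13 ± 0.13, the related kinase TYK2 rose by 0.63 ± 0.11, and STAT5B differed by 0.0087 ± 0.081 (adjusted p = 0.952).

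Of 29 immediate early and AP-1 genes tested, 17 were called higher and 1 lower, with a median change of 0.72; the count higher was 11 without CBFA2T3 shRNA replicate 2 and 6 without the replicate covariate. EGR1, an early growth response factor, read 5.24, 4.66, 6.70 and 6.93 without IKKβ(EE) and 8.20, 9.14, 8.57 and 10.20 with it, a rise of 3.15 ± 0.36 (adjusted p = 0.00235, limma). EGR1 was also higher with CBFA2T3 shRNA alone than in the controls. EGR3 rose by 2.35 ± 0.29, and JUN and JUNB, subunits of AP-1, by 1.35 ± 0.22 and 1.18 ± 0.13. NR4A3, an orphan nuclear receptor, rose by 1.34 ± 0.27. MYC, the growth-driving transcription factor, was the member called lower. It read 11.61, 11.38, 11.48 and 11.18 without and 11.26, 10.81, 11.15 and 11.12 with, so the sides overlapped, and its fall of 0.33 ± 0.094 was at the threshold (adjusted p = 0.0481) and lost its call when any of 7 arrays was left out, replicate 2 of both constructs being the exception. Of 20 p53 targets tested, 7 were called higher and 0 lower, with a median change of 0.17; the count was 4 without control replicate 2, CBFA2T3 shRNA replicate 2, either IKKβ(EE) array or replicate 2 of both constructs, and 3 without the replicate covariate. The 7 called higher in the main fit were 35% of the list, against 9.63% of all genes. Among them SESN3, a sestrin of the stress response, rose by 1.26 ± 0.10, the kinase PLK2 by 1.08 ± 0.14, MDM2, the ligase of p53, by 0.93 ± 0.089, TP53INP1, a p53-inducible stress protein, by 0.86 ± 0.15 and the cell-cycle inhibitor CDKN1A by 0.55 ± 0.15.

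Early B-cell genes were called at shares no larger than those over all genes, whereas 8 of the 16 tested genes of mature and activated B cells were called higher (50%). Those 16 had passed the floor, and with no floor on low values the median change over 28 mature genes was 0.10. Of 33 early B-cell and V(D)J genes tested, 2 were called higher and 3 lower, which is 6.06% and 9.09% against 9.63% and 9.49% of all genes, with a median change of -0.043. PAX5 differed by -0.057 ± 0.069, EBF1 by -0.054 ± 0.073 and RAG1 by -0.051 ± 0.10, none of them called. The 2 called higher were CD72, a coreceptor of the B-cell receptor, by 0.61 ± 0.17, and IKZF3, the transcription factor Aiolos, by 0.47 ± 0.085. The 3 called lower were CD9, LEF1, a Wnt-pathway transcription factor, by 0.40 ± 0.085, and BTK, the kinase of B-cell receptor signalling, by 0.28 ± 0.068. Of 16 mature and activated B-cell genes tested of 30 listed, 8 were called higher and 1 lower, with a median change of 0.43; the count higher was 5 without control replicate 2, CBFA2T3 shRNA replicate 1 or either IKKβ(EE) array, and 4 without the replicate covariate. Apart from MS4A1, CD69, an early activation antigen, read 7.35, 8.21, 8.79 and 9.74 without IKKβ(EE) and 10.34, 11.37, 10.11 and 11.51 with it. All 4 arrays with IKKβ(EE) lay above the others, and the paired differences were larger without the CBFA2T3 shRNA than with it: 2.98, 3.17, 1.32 and 1.77, in the order without the shRNA replicates 1 and 2, then with it. The rise was 2.31 ± 0.29 (adjusted p = 0.00301, limma). CD82, a tetraspanin, rose by 1.91 ± 0.13, SWAP70, a signalling protein of activated B cells, by 1.22 ± 0.092 and IRF4, a factor of activated B cells and plasma cells, by 1.18 ± 0.21. BCL6, the germinal-centre repressor, was the member called lower, by 0.30 ± 0.086 (adjusted p = 0.0478), and lost that call when any of 6 arrays was left out. Immunoglobulin light chain probe sets annotated to IGLC1 and IGLV1-44 rose by 3.47 ± 0.14 and 2.51 ± 0.13, and since they belong to a multigene family, which gene they read is uncertain.

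The falls were smaller than the rises. CD9, a tetraspanin of B precursors, read 9.29, 11.20, 10.44 and 11.87 without IKKβ(EE) and 8.20, 10.12, 8.78 and 10.35 with it. Replicate 2 was higher than replicate 1 in every group and the sides overlapped, but each paired difference was negative, at -1.10, -1.08, -1.65 and -1.52, and the change was -1.34 ± 0.13 (adjusted p = 0.00115, limma). IGFBP2, an insulin-like growth factor binding protein, read 10.44, 11.02, 10.60 and 11.27 without and 9.63, 10.15, 9.91 and 10.22 with, with no overlap, and fell by 0.85 ± 0.076 (adjusted p = 0.000749). AGR2, a secretory-pathway disulfide isomerase, had the largest fall, 1.54 ± 0.37 (adjusted p = 0.0278). It read 5.79, 5.20, 7.58 and 8.01 without and 5.01, 4.65, 5.87 and 4.88 with, and the fall was large in the 2 pairs with CBFA2T3 shRNA, where AGR2 stood highest, and smaller in the 2 others. The next largest was LOC441179, an uncharacterized locus, which read 5.09, 5.45, 6.38 and 6.38 without and 4.38, 4.61, 4.67 and 3.96 with; the sides did not overlap, all 4 arrays with IKKβ(EE) lay under log2 5, and it fell by 1.42 ± 0.28 (adjusted p = 0.0157). LGR5, a receptor of R-spondins in the Wnt pathway, read 7.06, 6.86, 6.48 and 5.68 without and 6.36, 5.21, 5.65 and 3.51 with and fell by 1.33 ± 0.26 (adjusted p = 0.0162), and its relative LGR6 fell by 1.27 ± 0.17. Other large falls were PALD1, a phosphatase-like protein, by 1.37 ± 0.18, CCM2L, a relative of the vascular gene CCM2, by 1.24 ± 0.18, SUSD3, a sushi-domain protein, by 1.03 ± 0.14, PFKFB4, a regulator of glycolysis, by 1.28 ± 0.23, CLEC11A, a growth factor of hematopoietic precursors, by 1.27 ± 0.15 and NOG, the BMP antagonist noggin, by 1.15 ± 0.15. The junctional protein JPH2 fell by 1.17 ± 0.19, S100A4, a calcium-binding protein, by 0.83 ± 0.075, and the actin-associated adaptor SORBS2 by 0.92 ± 0.16. Of 2 noncoding RNAs, PCAT18 fell by 0.95 ± 0.10 and the antisense RNA ESAM-AS1, near background on every array with IKKβ(EE), by 1.07 ± 0.23.

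**Figure D2:**
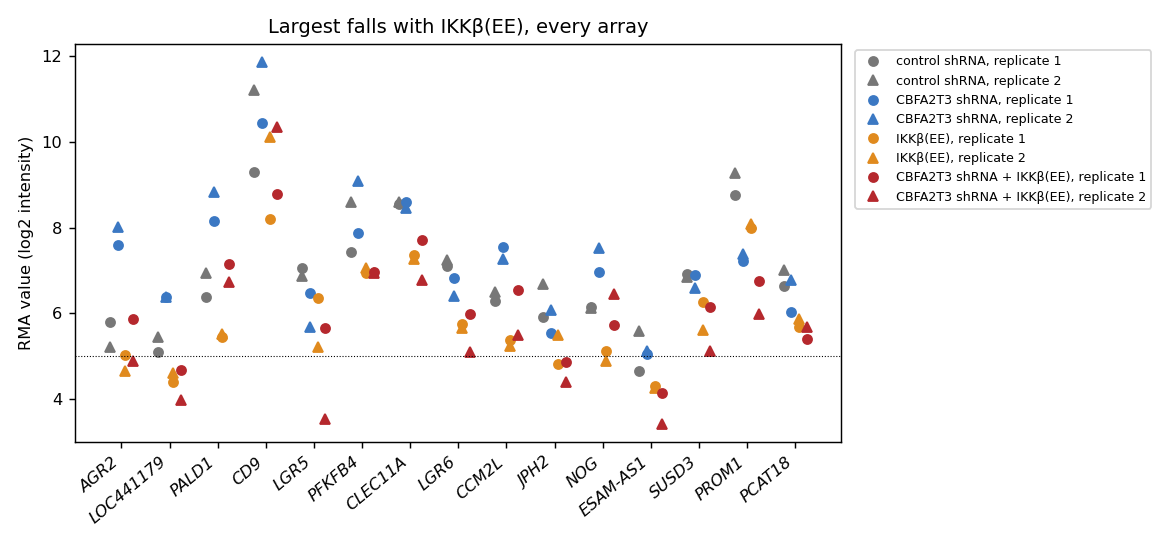
Log2 intensity (y axis) of the 15 genes with the largest called fall, by gene (x axis), with 1 point per array; colour gives the transfection, circles replicate 1 and triangles replicate 2, and the dotted line marks log2 5. Within a gene the differences between replicates or shRNA backgrounds are often as large as the fall. The sides of CD9, AGR2 and PROM1 overlap. Genes were drawn only if each matched pair fell.

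Of 17 progenitor and leukemia genes tested, 5 were called lower and 2 higher, with a median change of -0.10; the count lower was 1 without CBFA2T3 shRNA replicate 2, 2 without control replicate 2 or IKKβ(EE) replicate 1 and 3 without control replicate 1, CBFA2T3 shRNA replicate 1, IKKβ(EE) replicate 2 or replicate 2 of both constructs, and 2 without the replicate covariate. PROM1, the progenitor antigen CD133, read 8.76, 9.27, 7.22 and 7.37 without IKKβ(EE) and 7.98, 8.07, 6.74 and 5.97 with it and fell by 0.96 ± 0.18 (adjusted p = 0.0129, limma). MN1, a leukemia-associated transcriptional coregulator, fell by 0.83 ± 0.21, and FLT3, a receptor kinase of early progenitors, by 0.58 ± 0.15. All 3 genes were also lower with CBFA2T3 shRNA alone than in the controls, so that their sides overlapped. HHEX, a homeobox factor of blood progenitors, fell by 0.50 ± 0.066 with no overlap. SDC2, the proteoglycan syndecan 2, was called higher by 1.27 ± 0.16 and CD99 by 0.27 ± 0.076. The shares of the list called lower and higher were 29.4% and 11.8%, against 9.49% and 9.63% of all genes.

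Genes of DNA replication and mitosis leaned down as whole lists by small amounts, and the number that passed the test depended on single arrays. Of 47 replication and S-phase genes tested, 15 were called lower (31.9%, against 9.49% of all genes) and 0 higher; 1 had a positive difference, and the median change was -0.30. E2F2, a transcription factor of S-phase entry, read 10.41, 10.49, 10.75 and 10.94 without IKKβ(EE) and 10.02, 9.85, 10.37 and 9.78 with it and fell by 0.64 ± 0.13 (adjusted p = 0.0169, limma). The helicase subunits MCM5 and MCM2 fell by 0.49 ± 0.10 and 0.44 ± 0.11, and the replication factor MCM10 by 0.41 ± 0.11. PCNA, the sliding clamp, differed by 0.10 ± 0.083 and was not called (adjusted p = 0.445). Of 44 G2/M and mitosis genes tested, 12 were called lower (27.3%, against 9.49% of all genes) and 0 higher. The median change was -0.28, and in 22 of the 44 all 4 arrays with IKKβ(EE) lay under the other 4, as they did in 7.59% of all genes. TPX2, a spindle assembly factor, read 10.49, 10.61, 10.42 and 10.34 without and 10.26, 10.15, 9.99 and 9.43 with and fell by 0.50 ± 0.12 (adjusted p = 0.0284). FOXM1, a transcription factor of mitotic genes, fell by 0.47 ± 0.11, the mitotic phosphatases CDC25B and CDC25C by 0.46 ± 0.094 and 0.43 ± 0.12, and the proliferation marker MKI67 by 0.33 ± 0.10. CDK1, the mitotic kinase, differed by -0.01 ± 0.086 (adjusted p = 0.947). The replicates were unlike: over the S-phase list the median paired difference was -0.15 and -0.11 in the replicate 1 pairs, without and with CBFA2T3 shRNA, and -0.37 and -0.48 in the replicate 2 pairs. Over the G2/M list it was -0.012 and -0.14, then -0.32 and -0.55. The count of S-phase calls was 1 without the replicate covariate, and with an array left out it was 0 without control replicate 2 or CBFA2T3 shRNA replicate 2, 1 without IKKβ(EE) replicate 1, 2 without IKKβ(EE) replicate 2 or replicate 2 of both constructs and 3 without CBFA2T3 shRNA replicate 1. The count of G2/M calls was 1 without the covariate and, with an array left out, 0 without CBFA2T3 shRNA replicate 2, 1 without control replicate 2, CBFA2T3 shRNA replicate 1 or IKKβ(EE) replicate 2, 2 without IKKβ(EE) replicate 1, 3 without replicate 2 of both constructs and 7 without replicate 1 of both constructs; with cyclic loess it was 6. The list medians kept their sign in these 8 fits, at -0.20 to -0.36 for S phase and -0.19 to -0.35 for G2/M.

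Metabolic and growth lists had smaller median changes. The shares called lower were 25% for lipid synthesis, 20% for glycolysis and hypoxia and 2.94% for MYC targets, against 9.49% of all genes. The share of glycolysis and hypoxia genes called higher was 6.67%, against 9.63% of all genes. Of 24 cholesterol and lipid synthesis genes, 6 were called lower and 0 higher, with a median change of -0.17; ACACA, which starts fatty acid synthesis, fell by 0.37 ± 0.10, and the mevalonate enzymes MVD and PMVK by 0.38 ± 0.073 and 0.38 ± 0.092, and EBP, an isomerase of sterol synthesis, by 0.32 ± 0.073. That count was 1 without CBFA2T3 shRNA replicate 2 or IKKβ(EE) replicate 2 and 2 without either control array, CBFA2T3 shRNA replicate 1, IKKβ(EE) replicate 1 or either array of both constructs, and 1 without the replicate covariate. Of 30 glycolysis and hypoxia genes, 6 were called lower and 2 higher, with a median of -0.18; the count lower was 2 without control replicate 2, CBFA2T3 shRNA replicate 2 or replicate 2 of both constructs and 3 without either IKKβ(EE) array, and 1 without the replicate covariate. BNIP3, a mitophagy receptor, fell by 0.80 ± 0.14 and the prolyl hydroxylase subunit P4HA1 by 0.54 ± 0.087. The glycolytic enzymes HK2 and GPI fell by 0.44 ± 0.10 and 0.38 ± 0.085, whereas PFKL, a phosphofructokinase, rose by 0.41 ± 0.094. ADM, the peptide hormone adrenomedullin, went the other way: it read 7.13, 7.20, 6.98 and 7.28 without IKKβ(EE) and 8.96, 10.07, 8.06 and 9.46 with it, without overlap, and rose by 1.99 ± 0.24 (adjusted p = 0.00281, limma). Of 34 MYC target and ribosome biogenesis genes, 1 was called lower and 0 higher, with a median of -0.10; it was ODC1, the first enzyme of polyamine synthesis, which fell by 0.25 ± 0.065 and lost its call when any of the 8 arrays was left out.

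**Figure D3:**
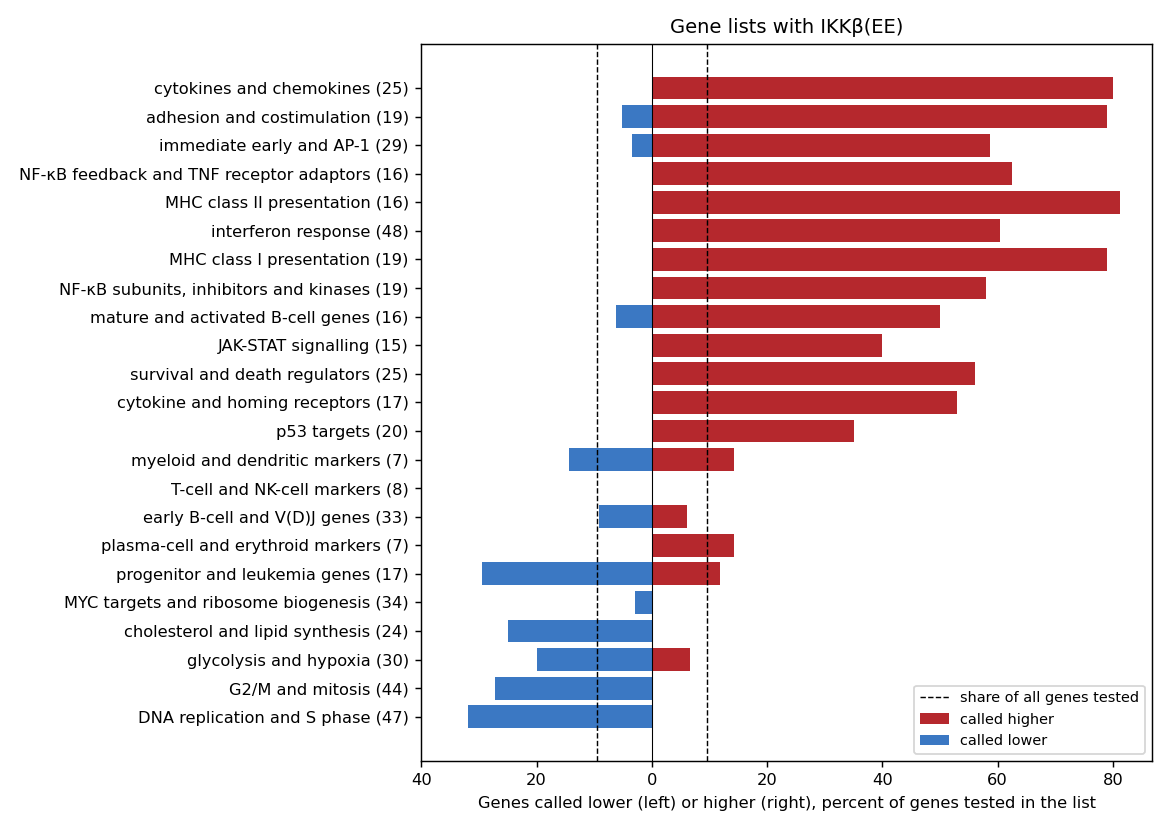
Share of tested genes called higher (red, right) or lower (blue, left) with IKKβ(EE) in each gene list drawn, as percent of the genes tested, whose number stands in brackets; lists are ordered by median change and the dashed lines mark the shares over all genes, 9.63% and 9.49%. Bars of the immune and NF-κB lists reach 40% to 81.2% on the right, those of the cell-cycle lists 27.3% and 31.9% on the left.

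**Figure D4:**
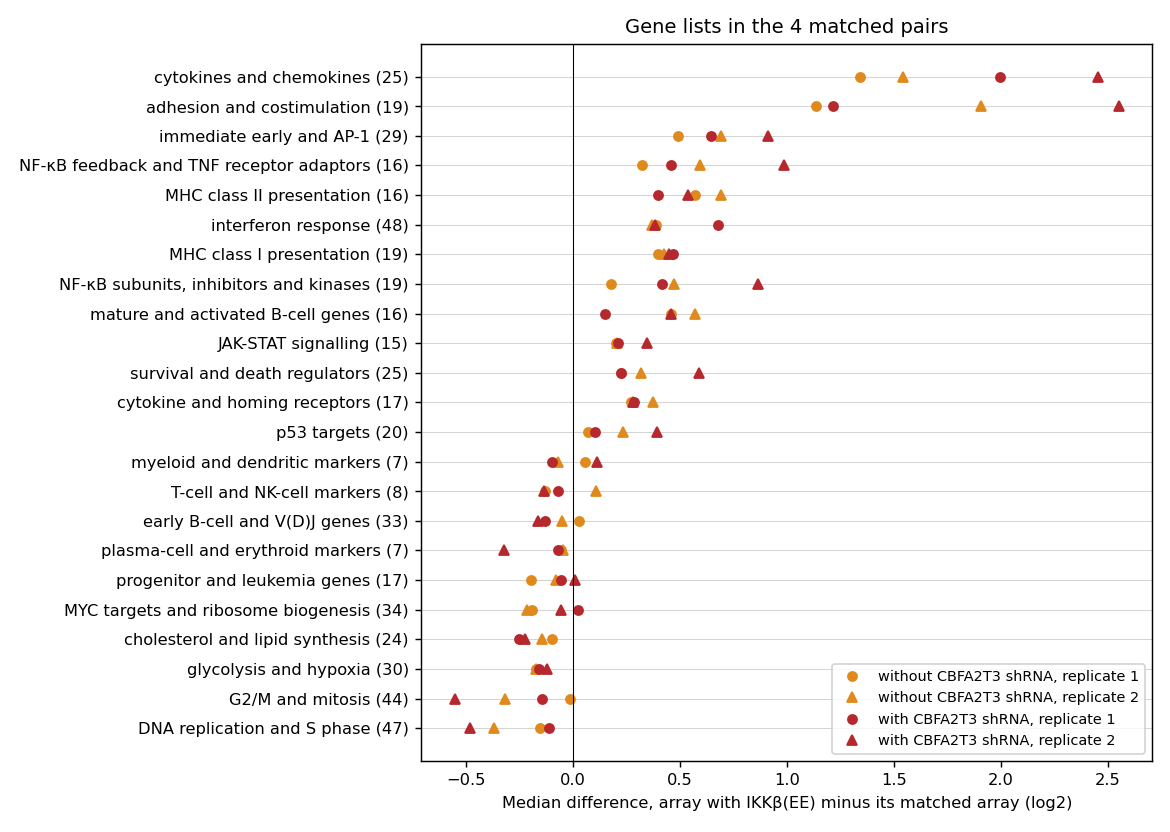
Median difference of each gene list (x axis, log2) in each of the 4 matched pairs, an array with IKKβ(EE) minus its matched array; colour gives the shRNA background and shape the replicate number. All 4 pairs lie right of 0 for the immune and NF-κB lists, and for the S-phase and G2/M lists the triangles of replicate 2 lie further left than the circles of replicate 1.

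The 4 against 4 comparison averages the effect of IKKβ(EE) over cells with and without the CBFA2T3 shRNA, and whether these effects differed was tested by an interaction term. The changes without and with the shRNA, which share no array, had a correlation of 0.82 across the 11449 genes, as a description over genes that are not independent. Across the called genes it was 0.90, but these were picked by the mean of both changes, which favours agreement. The interaction was called for 3 of 24481 probe sets (0.0123%), while 1358 had an unadjusted p under 0.05. HSPA6, an inducible heat shock protein, read 4.19, 4.56, 4.07 and 4.03 without IKKβ(EE), 5.17 and 4.81 with IKKβ(EE) alone and 8.42 and 8.27 with both. SLAMF7, a receptor of the SLAM family, read 3.35, 3.23, 3.15 and 3.51 without, 4.16 and 4.01 with IKKβ(EE) alone and 6.74 and 7.02 with both. In both genes only the arrays with both constructs stood clear of the rest by several log2 units. The effect of IKKβ(EE) was larger with the shRNA by 3.68 in HSPA6 (95% interval 3.12 to 4.24, interaction adjusted p = 0.00868, limma) and by 2.76 in SLAMF7 (2.25 to 3.26, interaction adjusted p = 0.021). Both genes passed the floor through the arrays with both constructs and lay at or near background on the others. The effect without the shRNA was thus measured near background, and the size and interval of each difference are uncertain. The other call was a probe set for which the platform annotation gives several symbols, with the same pattern and an interaction of 3.67. The 4 against 4 value of these genes, 2.46 ± 0.66 in HSPA6 and 2.17 ± 0.50 in SLAMF7, averages a small and a large effect. MS4A1, CCR7 and TNFRSF9 were also higher with both constructs, by 2.39, 2.13 and 2.23 in the interaction, but these were not called (interaction adjusted p = 0.426, 0.208 and 0.312, limma). The IKBKB probe set with the large rise went up by 6.63 without the shRNA and by 7.69 with it, and the part of this difference in the other values was not tested. The count of interaction calls was unstable, from 0 without either CBFA2T3 shRNA replicate to 57 without replicate 1 of both constructs.

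**Figure D5:**
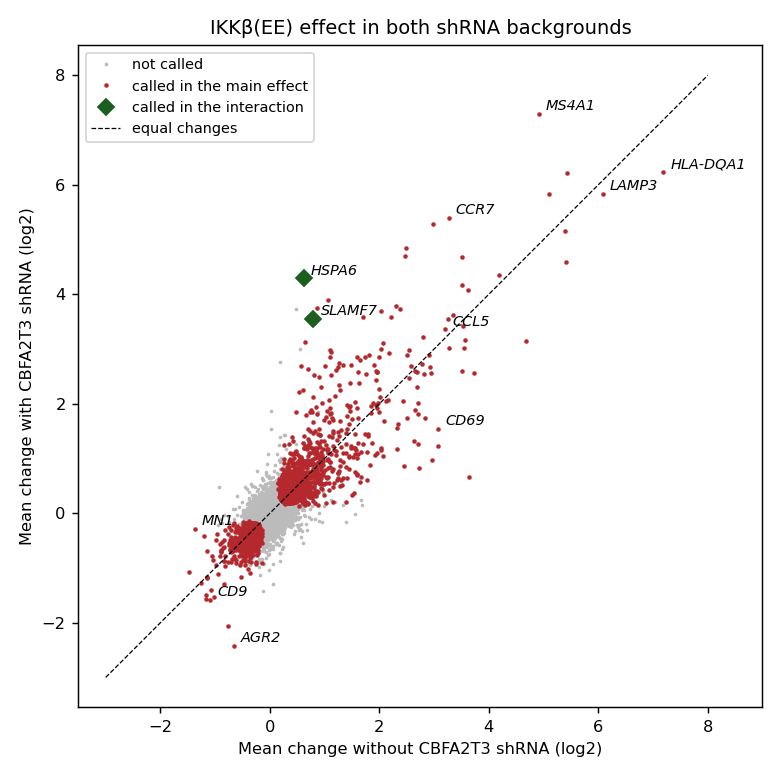
Mean log2 change with IKKβ(EE) in cells without (x axis) and with (y axis) the CBFA2T3 shRNA, 1 point per gene over 11449 genes; red points were called in the 4 against 4 comparison, grey were not, green diamonds were called in the interaction and the dashed line marks equal changes. Most called genes follow the line, and HSPA6 and SLAMF7 stand well above it. Calls were made on the mean of both changes, which favours points near the line.

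The effect was also of unlike size between the matched pairs. Over the genes called higher the median paired difference was 0.46 and 0.57 in replicates 1 and 2 without the shRNA and 0.42 and 0.69 with it, and over the genes called lower -0.31, -0.36, -0.28 and -0.50. The pair of replicate 2 with the shRNA was the largest in both directions. A test of whether the IKKβ(EE) effect differed between replicate numbers, added after the data were seen, called 0 of 24481 probe sets with limma, and 1256 had an unadjusted p under 0.05.

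Single arrays decided the calls of some genes described, above all the small falls. PROM1 lost its call without CBFA2T3 shRNA replicate 2, and E2F2 and LGR5 without that array or control replicate 2. GPR183 and LEF1 lost theirs without control replicate 2 or either CBFA2T3 shRNA array, and MCM5 without replicate 2 of the control or the CBFA2T3 shRNA or IKKβ(EE) replicate 1. The calls of AGR2 and SLAMF7 ended without any of the 4 arrays that carry the CBFA2T3 shRNA, and that of HSPA6 without any of these or IKKβ(EE) replicate 1. FOXM1 and TPX2 kept their calls only without control replicate 1 or either array of both constructs, and MN1 only without CBFA2T3 shRNA replicate 1 or either array of both constructs. FLT3 and MCM2 kept theirs only without replicate 1 of the control or of both constructs, PMVK only without replicate 1 of the CBFA2T3 shRNA or of both constructs, ACACA only without replicate 2 of the control or of both constructs and BCL6 only without replicate 2 of the control or of IKKβ(EE). BTK, CD72 and CD99 kept theirs in 1 of the 8 fits with an array left out. Without the replicate covariate CD9, BNIP3, P4HA1, PFKFB4, IL21R and JUN lost their calls too, as did the genes named before them here, apart from SLAMF7, E2F2 and PROM1. LOC441179 and CDC25B lost their calls without CBFA2T3 shRNA replicate 2, NR4A3 without replicate 2 of the control or the CBFA2T3 shRNA, HK2 without replicate 2 of any group and ESAM-AS1 without control replicate 2, IKKβ(EE) replicate 2 or either CBFA2T3 shRNA array. GPI and PFKL lost theirs in 5 and EBP, MCM10 and CDC25C in 6 of the 8 fits with an array left out. Without the replicate covariate NR4A3, GPI, PFKL, EBP, MCM10, CDC25C, TYK2, TP53INP1 and NCF1 lost theirs. None of these genes changed direction in these fits, which reuse the arrays that made the calls.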

How the data were processed

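Total RNA of Reh cells, 2 samples for each of 4 transfections, was hybridized to Affymetrix U133 Plus 2.0 arrays. The values deposited by the authors are log2 probe set intensities made with RMA, per the submitters' processing notes; its version, the chip definition and any filter: not given in the sources used here. RMA sets all arrays to a common distribution, so a shift of most transcripts in 1 direction is removed, and log2 values near background understate folds. Of 54675 probe sets, 62 controls were left out, and so were 30132 with fewer than 2 arrays at log2 5 or more. GEO's platform annotation assigned a single symbol to 41097 probe sets, more than 1 to 1801 and no symbol to 11777; 41043 matched the RefSeq gene table by gene identifier. Correlations between arrays ran from 0.937 to 0.991.

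The remaining 24481 probe sets went into limma 3.58.1 (R 4.3.3) with terms for IKKβ(EE), shRNA status and replicate number (4 residual and 3.95 prior degrees of freedom); the median SE was 0.085, and the number of arrays limits the precision. Tests were two-sided. The interaction model had 3 residual and 4.36 prior degrees of freedom. Equal replicate numbers were checked: the replicate 2 minus replicate 1 difference of each group was correlated with that of every other group, and the 6 coefficients, over probe sets, lay between 0.34 and 0.58. On this basis the number is treated as a pairing, which no label states. The fit was tested on simulated data, where the share of false calls came out above the nominal one and small changes were recovered less often than large ones. Genes were read through the single-symbol probe set with the highest mean. No gene named by the rules below had probe sets called in opposite directions. For genes chosen after their values were seen, other probe sets were not compared, so their values rest on a single probe set.

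The text names the 15 largest rises and 15 largest falls among called genes that moved the same way in all 4 pairs, and the 10 rises and 10 falls whose smallest paired difference was largest among genes whose lower side averaged log2 5 or more. It also names up to 4 called genes at either end of each of 25 lists, of which 1 is not reported here, up to 5 interaction calls in each direction, and all IKBKB and CBFA2T3 probe sets. Other genes, among them RELA, TNF, CIITA, CD40, CD83, CD274, IL6, NFKBIA, TNFAIP3, HLA-DRA, BCL2, MCL1, PCNA, CDK1, IRF1, EIF2AK2 and MIR146A, were chosen after their values were seen. The comparison, the lists and their members were chosen with earlier results of these data known. Alternatives were cyclic loess, equal array medians, array weights, other floors, a single probe set per gene, trend and robust moderation, no replicate term, an interaction model, each background or replicate number alone, and each array left out in turn.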

Additional observations from a re-analysis of the deposited data

Results flagged for a closer look

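In 3 of 264 sides of 4 arrays tested for a single array apart from the rest, 1 array stood out, where chance alone sets apart about 1 in 20. CXCL11 read 2.35 in control replicate 1 against 2.91 to 2.97 in the other 3 arrays without IKKβ(EE), all of them near background. TNFRSF9 read 4.06 in control replicate 2 against 3.58 to 3.65, also near background. CD72 read 8.86 in IKKβ(EE) replicate 2 against 8.39 to 8.43 in the other 3 arrays with IKKβ(EE).

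The effect of IKKβ(EE) differed between cells without and with the CBFA2T3 shRNA, by a test of the interaction term in limma, for HSPA6 (3.68 larger with the shRNA), SLAMF7 (2.76 larger) and a probe set with several symbols (3.67 larger). That probe set read 2.72 and 2.87 in the controls, 2.74 and 3.21 with CBFA2T3 shRNA, 3.52 and 3.86 with IKKβ(EE) and 7.27 and 7.80 with both, so only the arrays with both constructs were clear of background. HSPA6 and SLAMF7 also passed the floor through those arrays, so the sizes of all these differences are uncertain.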

How the results depend on the processing

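The 4349 calls became 2719 with no floor, 2531 with 1 probe set per gene, 1058 and 679 from the arrays without and with CBFA2T3 shRNA alone, 419 and 688 from replicate numbers 1 and 2 alone, and 1538 to 3416 with an array left out. Without the replicate block, the pairing of arrays by number, 1010 were called. Of the members of the gene lists 246 were called; this was 124 without the replicate block, 129 and 95 in the 2 shRNA backgrounds, 77 and 91 in the 2 replicate numbers, and 147 to 230 with an array left out. Of the probe sets named by the rule 124 were called; this was 76 with the CBFA2T3 shRNA arrays alone, 65 and 74 in the 2 replicate numbers, and 88 to 114 with an array left out. The 3 interaction calls became 10 with no floor, 9 with a floor at log2 6, 1 with a mean of at least log2 5, 17 with trend and robust moderation, 6 with array weights, 10 with equal array medians, 5 with 1 probe set per gene and 0 to 57 with an array left out. Among the 4349, 0 changed sign under any alternative. The alternatives reuse the arrays that made the calls, so this was largely fixed in advance. MME, which was not called, differed by 0.057 and turned to -0.13 with the CBFA2T3 shRNA arrays alone, -0.015 without control replicate 1 and -0.036 without IKKβ(EE) replicate 2 (-0.036 to 0.14 with an array left out). The rise of the IKBKB probe set with the large change was between 6.63 and 7.69 and called under every alternative that tested it, which leaves out 1 probe set per gene, where a brighter IKBKB probe set stood for the gene; its range was 6.85 to 7.36 with an array left out. The causes of these changes were not tested. Genes near background have no reliable fold.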

Other observations

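Genes outside the lists, chosen after their values were seen, also rose. The cyclins of G1, CCND2 and CCND1, rose by 3.05 ± 0.27 and 1.92 ± 0.35, while lists of S-phase and mitotic genes leaned down. CCND2 read 3.89, 4.02, 3.95 and 4.27 without IKKβ(EE) and 6.05, 6.62, 7.38 and 8.29 with it, so it was near background on every array without IKKβ(EE) and highest with both constructs. PLAU, the urokinase activator of plasminogen, rose by 2.77 ± 0.20, the matrix metalloproteinase MMP7 by 2.64 ± 0.48 and TIMP1, an inhibitor of such enzymes, by 2.18 ± 0.15. MMP10, another metalloproteinase, rose by 2.31 ± 0.62, but read 3.38, 3.50, 5.51 and 7.96 with IKKβ(EE), so only the 2 arrays with both constructs passed log2 5; its change was 0.87 without and 3.75 with the CBFA2T3 shRNA (interaction adjusted p = 0.622, limma). JAG1, a Notch ligand, rose by 2.51 ± 0.22, and RUNX2, a transcription factor of bone formation, by 1.998 ± 0.30. RUNX2 read 2.64, 3.20, 3.25 and 4.56 without IKKβ(EE) and 3.96, 4.39, 6.22 and 7.06 with it. Its sides overlapped, and only the 2 arrays with both constructs passed log2 5. CCND1 and MMP7 also lay under log2 5 on every array without IKKβ(EE), so their folds are uncertain.

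The 3 interferon genes described rose, and passed log2 5 only in the arrays with both constructs. IFNG, interferon γ, read 3.84, 3.88, 3.78 and 3.25 without and 4.95, 4.98, 6.21 and 6.52 with, a rise of 1.98 ± 0.33 (adjusted p = 0.00955, limma). IFNL2 and IFNL1, genes of interferon λ, rose by 2.48 ± 0.57 and 1.66 ± 0.37; IFNL2 read 3.67, 3.96, 4.09 and 3.70 without and 4.97, 4.78, 7.05 and 8.53 with, and IFNL1 3.52, 4.05, 3.61 and 3.62 and 4.66, 4.29, 6.01 and 6.50. In all 3 genes the arrays with IKKβ(EE) alone lay above the 4 without it but under log2 5, close to background. ANXA1, a regulator of inflammation, rose by 2.14 ± 0.54, by 3.63 without and 0.66 with the CBFA2T3 shRNA, a difference of effects that missed the threshold (interaction adjusted p = 0.0536, limma).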
